A study of Mus musculus with 10 samples.

Results

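Solute carriers are the membrane proteins, named Slc in the mouse, that move small molecules across the plasma membrane and the membranes of organelles. Genes were taken whose single symbol has the form Slc, a family number, the letter a and a member number. Of 238 such genes on the array, 146 were measured, which required a probe set above log2 4 on 2 or more of the 10 arrays. Each gene is read from the brightest of such probe sets by its mean over all arrays. They are 146 of the 8599 genes tested. The other 92 lay below the limit. Just inside it were Slc10a1 (second highest array 4.05), Slc25a53 (4.09) and Slc6a12 (4.11), and just outside it Slc2a5 (3.99), Slc25a48 (4.0) and Slc2a9 (4.0). By substrate, 29 of the measured members were mitochondrial carriers of the Slc25 family (of 33 on the array), 24 carried metals or heme (of 27) and 23 amino acids or peptides (of 40). Another 23 carried nucleosides, nucleotide sugars or vitamins (of 28), 15 organic ions, lipids or neurotransmitters (of 47), 14 sugars (of 20), 14 inorganic ions (of 35), 2 monocarboxylates (of 6), and 2 had another or an unknown substrate. A member that passed the limit only through the group in which it was high had to differ, so counts over the 146 describe the measured members, not the whole family. Of the 26 calls between the fractions 3 had fewer than 2 arrays above 4 outside the group in which each was high (Slc4a4, Slc25a24 and Slc10a1). Slc10a1 passed with 1 Sox2-positive array and 1 array of iPSC in 2i. The p-values of all 3 are given as a description only.

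The samples are mouse cells from a study of reprogramming, in 5 groups of 2 arrays, named a and b. Established induced pluripotent stem cells (iPSC) were grown either in 2i, a pair of kinase inhibitors that hold stem cells in the naive state, with serum, or together with mouse embryonic fibroblasts (MEFs). The other groups came from secondary MEFs, fibroblasts that can be made to express the Yamanaka reprogramming factors, after 32 days of factor expression: a sample with no fraction named, the cells sorted as Sox2-positive, and those sorted as Sox2-negative. The study's title names RNA FACS, the sorting of cells by an RNA they hold, and Sox2 read 9.46 and 10.45 on the positive and 4.45 and 4.13 on the negative arrays. The labels call the cell type of all 5 groups iPSC, yet in the Sox2-negative fraction 4 of 14 pluripotency markers lay under 4 on both arrays. They give no mouse strain, do not name what drives the factors, and do not say that feeder MEFs were removed or that the 2 replicates of a group came from different cultures. The p-values therefore cover the spread among these samples and no more. The smallest two-sided p that an exact permutation test could give here, for 2 against 2 arrays, is 0.33, and the number of arrays limits the precision.

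Solute carriers work in sets. Importers and exporters of one metal oppose each other, as Slc39 proteins bring zinc into the cytosol and Slc30 proteins take it out. Amino acid carriers such as Slc7a5 and Slc7a7 work as pairs with the glycoprotein Slc3a2, and many ion and nutrient carriers run on the sodium gradient set up by the sodium pump. In pluripotent cells carriers are best known for the uptake of glucose, threonine, glutamine and methionine, which feed growth and one-carbon metabolism. The Slc25 proteins exchange nucleotides, amino acids and phosphate between mitochondria and cytosol.

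The arrays formed 2 classes before any gene is considered. The control for 18S ribosomal RNA read 5.25 to 6.55 on the 4 arrays of iPSC in 2i and of day 32 and 11.35 to 13.22 on the 6 arrays of iPSC with MEFs and of both fractions. For Actb, the 3' probe set exceeded the 5' one by 2.7 to 3.88 in the first class. In the second it was by 1.08 and 1.12 in iPSC with MEFs and by 0.05 to 0.21 in both fractions. The solute carriers moved with the class: their median was 6.54 to 6.76 on the low-18S arrays, with 127 to 136 members above 4, and 4.98 to 5.3 on the high-18S arrays, with 98 to 101 above 4. Of the 146 members 73 read higher on every low-18S array than on any high-18S array, against 48.1% of all genes, and 5 (3.42%) read lower, against 3.56% of all genes. Those 5, chosen here after their values were seen, were Slc7a1, Slc25a30, Slc25a3, Slc38a1 and Slc25a25. The labels name 2 amplification kits without saying which sample had which. The fractions against each other and against iPSC with MEFs stay within the high-18S class, and day 32 against iPSC in 2i stays within the low-18S class. Between iPSC in 2i and iPSC with MEFs, class and group cannot be told apart. These are bulk RNA samples, in which fewer cells of a type and less RNA per cell cannot be told apart either.

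Between the fractions of day 32, the Sox2-positive cells had more mRNA of the phagosomal metal transporter Slc11a1, the fatty acid carriers Slc27a2 and Slc27a1, the sodium bicarbonate cotransporter Slc4a4, the peptide transporter Slc15a1 and the mitochondrial aspartate glutamate carrier Slc25a13. They had less of the mitochondrial ATP-magnesium carrier Slc25a24, the folate carrier Slc19a1 and the zinc transporters Slc30a4 and Slc39a6. At an adjusted p under 0.05 in limma's moderated test over all genes, 26 of 146 members were called (17.8%), 14 higher and 12 lower in the positive fraction. Of all genes 12.5% were called, 6.86% higher and 5.65% lower. The median difference of the members was 0.05, and that of all genes -0.02. All 3 called carriers of organic ions and lipids and all 3 of inorganic ions were higher, and all 3 of nucleotide sugars and vitamins and both of sugars were lower. Among the higher ones, Slc4a4 reached the limit only with the positive arrays, so it had to be higher. Slc10a1 reached it with 1 Sox2-positive array and 1 array of iPSC in 2i. Slc4a5 lay under the limit on all 4 arrays. Called metal transporters (3 higher, 2 lower), mitochondrial carriers (3 and 3) and amino acid carriers (2 and 1) went both ways. Without any 1 of the 4 compared arrays, 6 of the 26 stayed called: Slc11a1, Slc4a4, Slc25a13, Slc27a1, Slc25a24 and Slc19a1. With array weights 6 stayed called, 4.11% of the members against 4.29% of all genes, and with the 4 compared arrays alone 7, 4.79% against 3.76%. Among these 7 were Slc11a1, Slc25a13, Slc25a24 and Slc19a1, but not Slc4a4 or Slc27a1. Slc4a4 and Slc25a24 reached the limit only with the group in which each was high and had to differ. Their place among the calls that stayed is thus a description only.

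**Figure D1:**
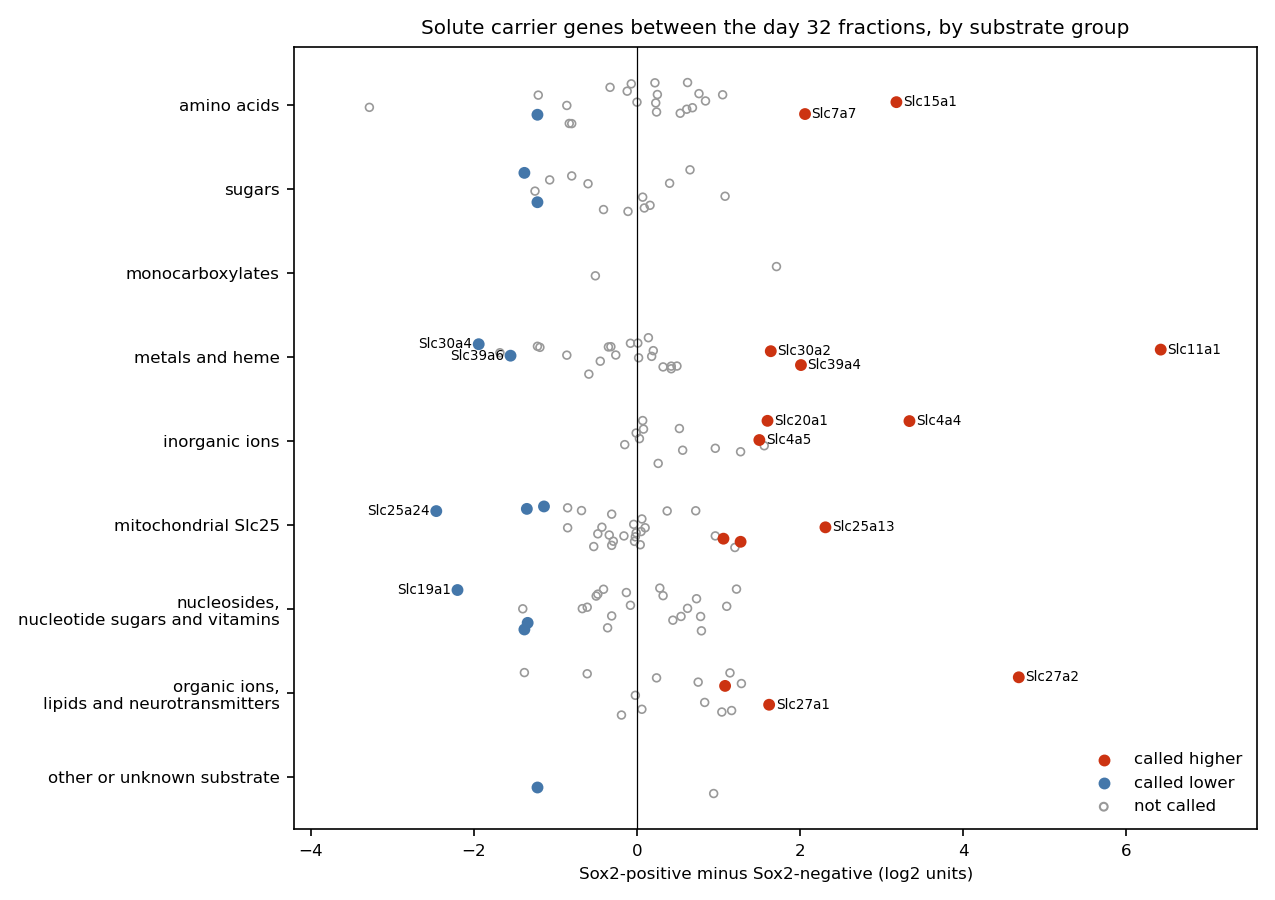
Each point is 1 of the 146 measured solute carriers, placed by its Sox2-positive minus Sox2-negative difference in log2 units, with rows for the substrate groups; filled points were called higher (red) or lower (blue) at an adjusted p under 0.05, open points were not called, and vertical scatter has no meaning. Slc11a1 stands farthest to the right at 6.42 log2 units, while Slc38a5, the open point farthest to the left at -3.28, was not called.

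Promoters are printed for Slc11a1 and Slc27a2, the largest called rises between the fractions, and for Slc25a24, the largest called fall, since they mark both ends of the comparison. Each is the 250 bases before the gene's start in RefSeq, on the plus strand of build GRCm38.p6. Capitals mark the GC box GGGCGG, read on either strand.
Slc11a1, chr1:74374953-74375202: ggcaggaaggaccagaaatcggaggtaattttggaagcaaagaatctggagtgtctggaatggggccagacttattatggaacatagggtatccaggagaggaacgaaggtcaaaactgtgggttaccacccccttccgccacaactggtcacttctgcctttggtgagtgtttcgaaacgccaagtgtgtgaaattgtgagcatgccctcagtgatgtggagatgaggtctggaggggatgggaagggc
Slc27a2, chr2:126552774-126553023: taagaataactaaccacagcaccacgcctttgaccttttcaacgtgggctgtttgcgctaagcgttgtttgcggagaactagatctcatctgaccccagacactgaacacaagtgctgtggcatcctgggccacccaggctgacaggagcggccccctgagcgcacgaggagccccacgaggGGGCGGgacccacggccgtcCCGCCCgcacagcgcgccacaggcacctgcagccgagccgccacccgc
Slc25a24, chr3:109122899-109123148: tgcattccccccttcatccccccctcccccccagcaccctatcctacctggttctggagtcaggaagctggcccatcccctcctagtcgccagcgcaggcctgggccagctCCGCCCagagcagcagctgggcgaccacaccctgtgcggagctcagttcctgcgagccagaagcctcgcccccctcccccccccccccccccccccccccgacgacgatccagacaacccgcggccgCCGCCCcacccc
The windows held 51.2% G and C for Slc11a1, 64.0% for Slc27a2 and 72.8% for Slc25a24. The search covered both strands for the GC box, for the E-box, which is CACGTG, for the TATA box, which is TATAAA, and for the CCAAT box, which is CCAAT. It found 2 GC boxes in each of the Slc27a2 and Slc25a24 windows and none of the 4 motifs in that of Slc11a1. Of 32851 promoter windows of this length, 32.7% held a GC box, 6.02% an E-box, 12.4% a TATA box and 33.8% a CCAAT box. Promoters were found for 111 of the 146 members.

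Slc11a1, which moves iron and manganese out of the phagosome in macrophages, read 9.18 and 10.43 on the Sox2-positive arrays and 3.54 and 3.24 on the Sox2-negative arrays. The positive arrays were both high and the negative arrays both under the limit of 4, so that the fold is given against that limit: it was at least 55.9-fold higher (difference 6.42, SE 0.73, adjusted p = 0.0013). Of 10 measured genes of iron handling 2 were called, the heme oxygenase Hmox1 higher (1.47, adjusted p = 0.0276) and the ferroxidase Heph lower (-1.76, adjusted p = 0.0304). The iron importer Slc11a2 differed by -0.32 (adjusted p = 0.3893), and the iron exporter Slc40a1 lay under 4 on all 4 arrays. Of 12 macrophage markers 10 were under 4 on both arrays in each fraction, including Ptprc, Csf1r, Adgre1 and Itgam, which were under 4 on all 10 arrays. Summed over the 12, the log2 level was 39.24 to 39.5 on the positive arrays and 35.76 to 37.5 on the negative arrays. The lysosomal gene Cd68, one of them, read 6.96 and 6.9 against 4.16 and 4.17. Laptm5, the brightest of the 12, read 12.35 and 12.21 against 11.54 and 12.42, and 10.44 to 12.86 over all 10 arrays.

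Of 24 metal transporters 5 were called, and zinc exporters and importers were found on both sides. Slc30a4, which loads zinc into vesicles, read 5.22 and 6.44 on the positive and 7.94 and 7.59 on the negative arrays. The plasma membrane importer Slc39a6 read 7.35 and 7.86 against 9.72 and 8.59. Both were lower on the 2 positive arrays without overlap, Slc30a4 by 3.82-fold (adjusted p = 0.0352) and Slc39a6 by 2.93-fold (adjusted p = 0.0332), though a second probe set of Slc39a6 differed by only -0.23 and the mean of its probe sets was not called (adjusted p = 0.0537). Slc39a4, the main zinc importer of the intestine, read 5.7 and 5.79 on the positive and 3.45 and 4.02 on the negative arrays. It was higher by 2.01 log2 units (adjusted p = 0.0442), with tight positive arrays and 1 negative array under 4. Slc30a2, another vesicle exporter, was called higher (1.64, adjusted p = 0.049), but its values of 3.43 and 3.96 against 1.96 and 2.14 all lay under 4, so no fold is given. None of these 4 calls held without each array in turn: Slc39a4 and Slc30a2 lost theirs without any of the 4 arrays (adjusted p 0.0674 to 0.2014), Slc30a4 without positive array a or either negative array (0.0725 to 0.1324), and Slc39a6 without either positive array or negative array a (0.0703 to 0.1186, with a difference of -0.99 without the last). Slc39a8, an importer of zinc and manganese, was high on the negative arrays (7.02 and 4.87) and lower on the positive (4.81 and 3.71), but the values of the 2 groups came close and it was not called (-1.68, adjusted p = 0.1764). Slc30a1, the exporter at the plasma membrane, differed by 0.42 (adjusted p = 0.3023). Of 7 genes of zinc and copper handling only the metallothionein Mt2 was called, higher by 1.23 (adjusted p = 0.0277).

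Of the 4 measured fatty acid carriers of the Slc27 family, 2 were called and both were higher. Slc27a2, which imports and activates very long fatty acids, read 6.15 and 6.85 on the positive arrays and 1.85 and 1.79 on the negative arrays. It was well measured in the positive fraction and under 4 on both negative arrays, at least 5.66-fold apart (difference 4.68, SE 0.83, adjusted p = 0.0093), and its adjusted p was 0.0597 without positive array b. Slc27a1, the fatty acid carrier of muscle and fat, read 6.61 and 6.32 against 5.03 and 4.65, a 3.08-fold difference (adjusted p = 0.0094), with both positive arrays above both negative ones. The other 2 of the family were lower and not called, Slc27a3 with 3.89 and 3.03 against 5.17 and 4.52 (-1.38, adjusted p = 0.0565) and Slc27a4 by -0.19 (0.7657). After quantile normalization the organic ion and lipid group had 1 lower call beside the 3 higher ones. The bile acid carrier Slc10a1 was also called (1.08, adjusted p = 0.0456), on values of 4.05 and 4.0 against 2.93 and 2.97 that lie at the limit, and lost its call without any of the 4 arrays (0.0977 to 0.1311). Fat cell markers moved with the fractions in the other direction. Of 7 on the array 3 lay under 4 on both negative and 5 on both positive arrays, and their summed log2 level was 40.27 to 41.8 in the negative and 20.03 to 21.33 in the positive fraction, with Fabp4 at 12.15 and 11.25 on the negative arrays. Of 12 fibroblast markers all were under 4 on the positive arrays and 6 on both negative arrays, with sums of 29.15 to 30.84 and 43.1 to 44.9. The part of such cells in the differences between the fractions was not tested.

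Of the inorganic ion carriers, Slc4a4, which moves sodium with bicarbonate, read 6.7 and 5.53 on the positive and 1.9 and 3.66 on the negative arrays. It was also under 4 on every array of the other 3 groups, so the positive fraction was the one group in which it was measured. Since it passed the limit through these 2 arrays alone, it had to differ. Its difference of at least 4.33-fold (3.34, SE 0.54, adjusted p = 0.0065, and 0.0718 over the 4 compared arrays alone) is a description. Its relative Slc4a5 was called too (1.5, adjusted p = 0.0236), with all 4 values between 1.48 and 3.17 and thus under the limit. The phosphate importer Slc20a1, also a receptor of gammaretroviruses, read 8.63 and 8.94 against 7.86 and 6.52. Its positive arrays lay close together and its negative arrays apart, and it was 3.02-fold higher (adjusted p = 0.0394). Slc4a5 lost its call without any of the 4 arrays (0.052 to 0.0832), and Slc20a1 without either positive array or without negative array b (0.0694 to 0.1584), the difference without the last being 0.92 instead of 1.60. The sodium potassium chloride cotransporter Slc12a2 differed by 0.07 (adjusted p = 0.8929). Of 8 measured pump genes, which set the gradients these carriers use, 3 were called (37.5%) and all were higher. Of all genes 12.5% were called and 6.86% were higher. The 3 were the sodium pump subunits Atp1b2 (5.01, adjusted p = 0.0022) and Atp1b1 (4.13, adjusted p = 7.96e-04) and the proton pump subunit Atp6v1b2 (1.05).

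**Figure D2:**
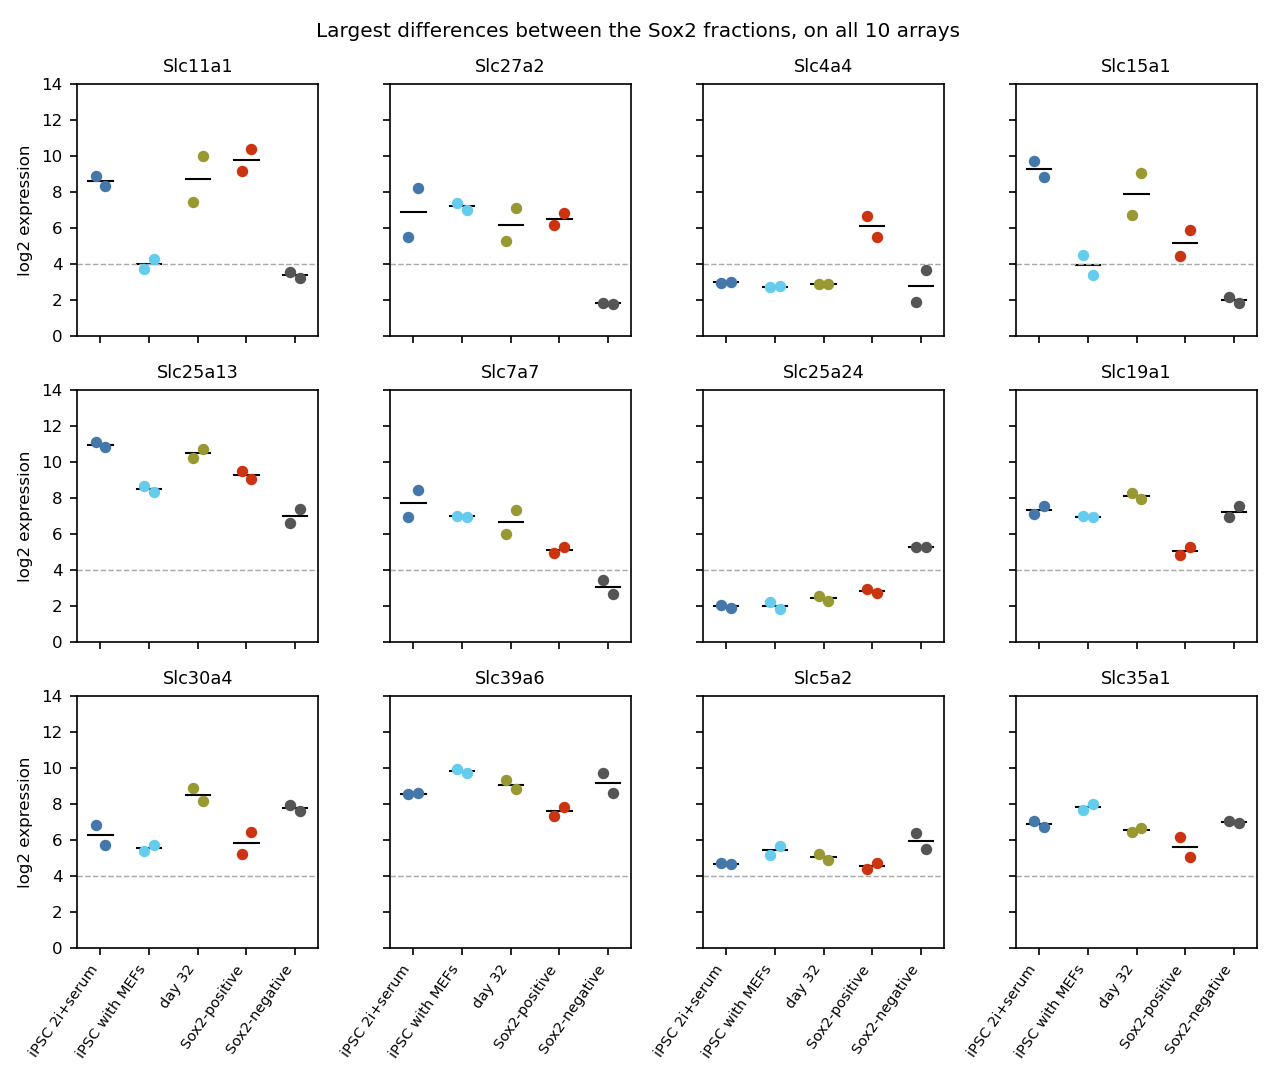
Deposited log2 expression on all 10 arrays of the 6 largest called rises and the 6 largest called falls between the Sox2 fractions. Points are arrays, short lines group means and the dashed line the limit of 4, with levels read within a panel; Slc4a4 is above 4 on the 2 Sox2-positive arrays and Slc25a24 on the 2 Sox2-negative arrays, whereas Slc11a1 and Slc15a1 are also high in iPSC in 2i and at day 32, which lie in the other array class.

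Among the amino acid and peptide carriers, the intestinal peptide importer Slc15a1 read 4.44 and 5.9 on the positive and 2.16 and 1.82 on the negative arrays. It was at least 2.25-fold higher (difference 3.18, adjusted p = 0.0307), with positive array b carrying more of the difference: without it, or without either negative array, the adjusted p was 0.0777 to 0.1573. Slc7a7, which exports cationic amino acids, read 4.95 and 5.27 against 3.42 and 2.68, at least 2.16-fold higher (adjusted p = 0.0445) and not called without any of the 4 arrays (0.0693 to 0.1672). The arginine and lysine importer Slc7a1 went the other way, with 7.37 and 6.68 against 8.4 and 8.09, a 2.33-fold lower level (adjusted p = 0.0453) whose call was lost without positive array b or either negative array (0.0739 to 0.208). The carriers usually named for growing stem cells were not called: Slc7a5 differed by 0.62 (adjusted p = 0.2609), its partner Slc3a2 by 0.53 (0.2415), the glutamine importer Slc1a5 by 0.76 (0.2825), Slc38a2 by 0.22 (0.6925) and Slc7a3 by 0.00 (1.0). The cystine importer Slc7a11 was on the array and below the limit. Of 11 genes of the amino acid response and serine synthesis, 1 was called, Chac1, which degrades glutathione (3.12, adjusted p = 0.0213). Of 7 glutathione genes the lipid peroxidase Gpx4 was called, higher by 1.40 (adjusted p = 0.0233).

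The mitochondrial carriers held 6 calls, of which those of Slc25a13 and Slc25a24 remained without each array. Slc25a13, the aspartate glutamate carrier that feeds NADH shuttling, read 9.52 and 9.09 on the positive and 6.59 and 7.4 on the negative arrays. Both positive arrays were clearly above both negative ones, a 4.96-fold difference (2.31, SE 0.34, adjusted p = 0.0042). Slc25a24, which exchanges ATP-magnesium for phosphate and responds to calcium, read 2.92 and 2.72 against 5.3 and 5.27. It lay under 4 on all arrays except the 2 of the negative fraction, which were nearly equal. As it passed the limit through those 2 arrays alone, it had to differ, and its difference of at least 2.44-fold (-2.46, SE 0.25, adjusted p = 7.96e-04) is a description. Slc25a36, a pyrimidine nucleotide carrier, was 2.42-fold higher (adjusted p = 0.0198), and the mitochondrial iron importer Slc25a28 2.09-fold higher (0.0321). Slc25a14 was 2.55-fold lower (0.0207), and Slc25a46, an outer membrane protein of mitochondrial shape, 2.21-fold lower (0.0257). These last 4 were not called without positive array b or negative array a (0.0559 to 0.1203), nor were Slc25a36 and Slc25a28 without negative array b (0.0554 and 0.0929) or Slc25a28 without positive array a (0.0571). The other 23 of 29 were not called, among them the ADP and ATP exchangers Slc25a4 (-0.68, adjusted p = 0.1549) and Slc25a5 (-0.03, 0.9535) and the phosphate carrier Slc25a3 (-0.31, 0.5363).

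Of the vitamin and nucleotide sugar carriers, the reduced folate carrier Slc19a1 read 4.81 and 5.26 on the positive arrays and 6.94 and 7.54 on the negative arrays. The groups did not overlap, and the positive arrays were 4.61-fold lower (difference -2.20, SE 0.31, adjusted p = 0.0033). The CMP-sialic acid carrier Slc35a1 of the Golgi read 6.19 and 5.06 against 7.04 and 6.97 and was 2.60-fold lower (adjusted p = 0.0394), but not by the mean of its 2 probe sets (adjusted p = 0.075). Slc35a4 was 2.54-fold lower (adjusted p = 0.0336), and not called after quantile normalization (0.0572) or by the mean of its probe sets (0.0613). Slc35a1 lost its call without positive array b or either negative array (0.0917 to 0.1656), with a difference of -0.81 instead of -1.38 without the first, and Slc35a4 without either positive array or negative array a (0.0951 to 0.1245).

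Of 14 sugar carriers 2 were called between the fractions, and of 2 monocarboxylate carriers 0. The glucose importers Slc2a1 and Slc2a3 were not called at 0.65 (adjusted p = 0.18) and 0.40 (0.2864), but for Slc2a1 the choice of probe set mattered, since its other kept probe sets differed by 1.52 and 1.42 and the mean of all 3 was called (1.20, adjusted p = 0.0254). Slc5a2, the glucose sodium cotransporter of the kidney, read 4.4 and 4.74 on the positive and 6.4 and 5.51 on the negative arrays, 2.61-fold lower (adjusted p = 0.0327), and Slc37a4, which brings glucose 6-phosphate into the endoplasmic reticulum, was at least 1.64-fold lower (adjusted p = 0.0266). Slc5a2 lost its call without either positive array or negative array a (0.0786 to 0.1211) and by the mean of its probe sets (0.0849), and Slc37a4 without positive array a or either negative array (0.0631 to 0.0906). The lactate carriers were not called, Slc16a1 at -0.51 (adjusted p = 0.3711) and Slc16a3 at 1.71 (0.1604). Slc16a3 read 3.04 and 5.38 on the negative arrays and would be called without negative array b (2.88, adjusted p = 0.0307). Their membrane partner Bsg was higher by 1.05 (adjusted p = 0.0333). The brightest members of the other groups were not called between the fractions: the zinc importer Slc39a1 differed by -0.35 (adjusted p = 0.3638), the choline carrier Slc44a1 by -0.41 (0.4123), the creatine carrier Slc6a8 by 1.16 (0.1082), or 1.72 without positive array a, where it was called (0.0384), Slc38a10 by -0.07, and Slc66a1 by 0.94 (0.0883). Of the 2 members with another or an unknown substrate, Slc66a2 was at least 1.77-fold lower (adjusted p = 0.0425), a call lost by the mean of its probe sets (0.0743). The call was also lost without positive array a or b or negative array b, with differences of -1.12, -1.34 and -0.95.

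Against iPSC grown with MEFs, both fractions had more lower than higher solute carriers, and the balance depended on the scaling of the arrays. In the Sox2-positive fraction 52 members were called (35.6%, against 35.9% of all genes), 12 higher and 40 lower, where 6.13% and 29.8% of all genes were. The split became 18 higher and 16 lower after quantile normalization and 18 and 25 after centring each array on its median. In the Sox2-negative fraction 59 were called (40.4%, against 47.5% of all genes), 17 higher and 42 lower, where 12% and 35.6% of all genes were. Under the same scalings the split became 18 and 22, and 24 and 32. The all-gene medians were -0.45 for the positive and -0.50 for the negative fraction as deposited, -0.09 and -0.10 after quantile normalization and -0.18 and -0.25 after centring, and the members' medians as deposited were -0.19 and -0.41. The share of members called was thus at the background in the first comparison and below it in the second. Inside the high-18S class, iPSC with MEFs also differed from both fractions in RNA controls: its Actb gap was 1.08 and 1.12 against 0.05 to 0.21, and its all-gene median level 6.48 and 6.53 against 6.03 to 6.1. Markers of other cells moved as well. The summed fat cell markers read 15.57 to 17.28 with MEFs, 20.03 to 21.33 in the positive and 40.27 to 41.8 in the negative fraction, and the summed fibroblast markers 39.24 to 40.44, 29.15 to 30.84 and 43.1 to 44.9. Single fibroblast markers went both ways. Col1a2 read 5.59 and 5.27 with MEFs and 1.74 to 2.23 on the arrays of both fractions. S100a4 read 2.77 and 2.67 with MEFs, 2.48 and 2.18 on the positive and 6.82 and 6.96 on the negative arrays. Under 4 on both arrays were 6, 5 and 3 of the 7 fat cell markers and 7, 12 and 6 of the 12 fibroblast markers. The part of these in the calls was not tested. Both comparisons use the same 2 arrays of iPSC with MEFs, so their values are set side by side and not counted against each other.

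Slc11a1 was 55.3-fold higher in the positive fraction than in iPSC with MEFs (5.79, SE 0.73, adjusted p = 0.0013), where it read 3.75 and 4.28, and was not called in the negative fraction. The Slc4a4 difference was also at least 4.33-fold (3.36, adjusted p = 0.0027). As Slc4a4 passed the limit through the positive arrays alone, this difference is again a description. Slc27a1 was 2.92-fold higher (adjusted p = 0.0047). Neither Slc4a4 nor Slc27a1 was called in the negative fraction. Slc12a8, of the cation chloride cotransporter family, read 6.31 and 6.41 on the positive arrays against 3.75 and 3.58, at least 5.13-fold higher (adjusted p = 0.0035). The kidney peptide importer Slc15a2, at 4.05 and 4.65 against 2.79 and 2.82, was at least 1.27-fold higher (1.54, adjusted p = 0.0129), and not without positive array b or either MEF array (0.0615 to 0.0732). The UDP-N-acetylglucosamine carrier Slc35a3 was higher in both fractions, 3.01-fold (adjusted p = 0.0029) and 3.73-fold (7.22e-04), with 7.04 and 7.16 on the positive and 7.19 and 7.63 on the negative arrays against 5.52 and 5.5.

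**Figure D3:**
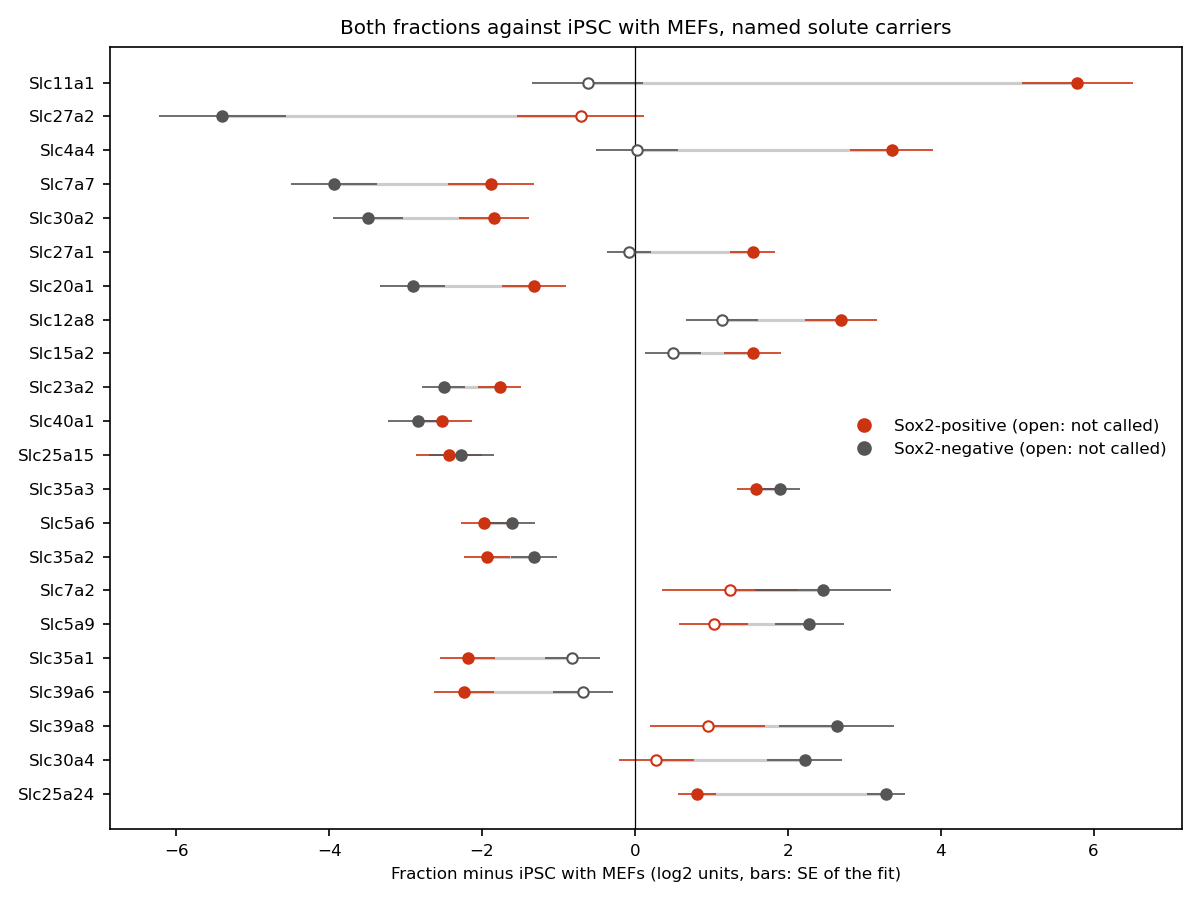
Differences from iPSC with MEFs in log2 units for the named solute carriers, with red points for the Sox2-positive and grey points for the Sox2-negative fraction, bars of 1 SE of the fit, and open points where limma made no call. Genes are ordered by the positive minus the negative difference, from Slc25a24 at the bottom to Slc11a1 at the top, both differences of a gene share the 2 arrays of iPSC with MEFs, and Slc35a3 lies at 1.59 and 1.90.

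The largest called rises of the negative fraction follow. Between the fractions themselves, Slc5a9 (adjusted p = 0.1008), Slc39a8 (0.1764) and Slc7a2 (0.4053) were not called. Slc25a24, which passed the limit through the negative arrays alone, was at least 2.44-fold higher than in iPSC with MEFs (3.28, SE 0.25, adjusted p = 9.85e-05), where it read 2.19 and 1.83, while on the positive arrays it was called higher by 0.81 (adjusted p = 0.0325) with all values under 4, a call lost without any of those 4 arrays (0.053 to 0.1797). Slc30a4 was 4.64-fold higher (adjusted p = 0.0061), and the sodium sugar cotransporter Slc5a9, at 4.41 and 4.82 against 2.33 and 2.33, at least 1.53-fold (adjusted p = 0.0034). Slc5a9, too, reached the limit only with the negative arrays. Slc39a8 was at least 3.85-fold higher (2.64, adjusted p = 0.0186), but negative array a carried it: without that array the difference was 1.56 (adjusted p = 0.1158), and the call was also lost without either MEF array (0.0801 and 0.082). The cationic amino acid carrier Slc7a2, at 5.64 and 6.04 against 3.5 and 3.26, was at least 3.58-fold higher (adjusted p = 0.0463), a call lost without any of the 4 arrays (0.097 to 0.1629) and after quantile normalization (0.0672). In the negative fraction against iPSC with MEFs, 47.5% of all genes were called, 12% higher and 35.6% lower. Of 14 sugar carriers 7 were called there, a share near that of all genes, with 5 higher and 2 lower. The 2 lower ones were the glucose importers Slc2a1 (-1.44, adjusted p = 0.0041) and Slc2a3 (-1.09, 0.0051), though quantile normalization left neither called (0.0685 and 0.226). After centring both stayed called.

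Slc40a1, the iron exporter ferroportin, fell in both fractions: it read 5.22 and 4.79 in iPSC with MEFs, 2.3 and 2.68 on the positive and 1.63 and 2.7 on the negative arrays. It was at least 2.01-fold lower in each (adjusted p = 0.0024 and 7.43e-04). The iron importer Slc11a2 read 5.12 and 5.08 in iPSC with MEFs. It was lower by at least 2.14-fold in the positive fraction (adjusted p = 0.0034) and by 2.01-fold in the negative (0.0066). The transferrin receptor gene Tfrc fell too (-2.16 and -2.46, adjusted p = 0.001 and 2.25e-04). Yet the 10 measured iron handling genes, Tfrc among them, went both ways. For Sox2-positive cells 2 rises and 4 falls were called, the 10 differences spanning -2.16 to 2.02. For Sox2-negative cells it was 4 rises and 4 falls, spanning -2.5 to 2.86. Quantile normalization gave 2 rises with 1 fall for the former, and again 4 of each for the latter. The ornithine carrier Slc25a15 had a mean of 10.02 in iPSC with MEFs (SD 0.02, n = 2) and read between 7.13 and 8.36 in the fractions, 5.39-fold (adjusted p = 0.0037) and 4.82-fold (0.0029) lower, with differences of -2.43 and -2.27 that quantile normalization moved to -1.57 and -1.44. The UDP-galactose carrier Slc35a2 was 3.81-fold (adjusted p = 0.0026) and 2.5-fold (0.0073) lower. Quantile normalization moved the first from -1.93 to -1.08, still called, and left the second uncalled (0.2252). Centring left both called. The multivitamin carrier Slc5a6 was at least 1.95-fold lower in each (0.0021 and 0.0025). Vitamin C importer Slc23a2 was 3.41-fold (0.0027) and 5.66-fold (3.46e-04) lower. In the group of nucleotide sugar and vitamin carriers, 10 of 23 were lower and 1 higher in the positive fraction, and 7 lower and 2 higher in the negative, with 6 lower and 3 lower after quantile normalization.

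Slc27a2 fell from 7.41 and 7.02 in iPSC with MEFs to 1.85 and 1.79, at least 9.29-fold (adjusted p = 0.0012), and in the positive fraction it was not called. Slc7a7, at 7.03 and 6.96 in iPSC with MEFs, was at least 7.97-fold lower in the negative (-3.94, adjusted p = 8.49e-04) and 3.69-fold lower in the positive one (-1.88, adjusted p = 0.0291), the latter not called under either scaling (0.0777 and 0.0603) or without any of the 4 arrays (0.0625 to 0.1237). Slc20a1 was 7.52-fold (adjusted p = 8.84e-04) and 2.49-fold (0.0373) lower. Slc30a2 lay under 4 on all 4 arrays of the fractions and was at least 2.91-fold lower in each (6.30e-04 and 0.015). For Slc20a1 the positive fraction's call was lost under both scalings (0.454 and 0.0937) and without any of the 4 arrays (0.0668 to 0.1762), and for Slc30a2 without positive array a or MEF array a (0.084 and 0.1146). The fractions' direct contrast, given above, was called for Slc27a2, Slc7a7, Slc20a1 and Slc30a2.

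In the positive fraction the Golgi carrier Slc35a1 was 4.58-fold (adjusted p = 0.003) and the zinc importer Slc39a6 4.71-fold (0.0034) lower than in iPSC with MEFs, but both depended on the probe set, and quantile normalization moved Slc39a6 from -2.24 to -1.41. The second probe set of Slc39a6 was called in the opposite direction (1.80, adjusted p over probe sets = 0.0137), and the mean of the probe sets was not called (adjusted p = 0.5494). That of Slc35a1 was not called either (0.0668). Of the 20 called members with several kept probe sets in this comparison, 9 had a probe set of the opposite sign, against 6 of 22 in the negative fraction and 0 of 9 between the fractions.

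Of 5 amino acid carriers of growing cells, 4 were lower than in iPSC with MEFs as deposited in both fractions. The fifth, Slc1a5, was not called in the positive fraction (-0.54, adjusted p = 0.3607) and lower in the negative (-1.30, 0.035), a call lost without negative array b or either MEF array (0.0979 to 0.2015) and under both scalings (0.0794 and 0.1193). Slc7a5, at 10.91 and 11.1 in iPSC with MEFs, differed by -1.35 in the positive (adjusted p = 0.0143) and -1.96 in the negative fraction (0.0018), Slc3a2 by -0.93 (0.0286) and -1.46 (0.0029), Slc38a2 by -1.30 (0.0126) and -1.52 (0.0041), and Slc7a3 by -1.66 in each (0.0174 and 0.0125). After quantile normalization only Slc7a5 in the negative fraction remained called among these 8 differences. After centring on the median, only Slc3a2 in the positive fraction lost its call among them. Of 23 amino acid carriers, 7 were lower and 2 higher in the positive fraction, which became 0 lower and 4 higher after quantile normalization, and 9 lower and 4 higher in the negative fraction, which became 2 and 3. Centring gave 4 lower and 3 higher in the positive fraction and 6 lower and 5 higher in the negative. Of 11 genes of the amino acid response and serine synthesis, 6 were called in the positive fraction (54.5%) and 8 in the negative (72.7%), all lower. Of all genes 29.8% and 35.6% were called lower. By p, Psat1 and Phgdh of serine synthesis came first in the positive fraction (-1.60 and -1.76, adjusted p = 0.003 and 0.0031). The stress gene Trib3 came first in the negative fraction (-4.40, adjusted p = 8.20e-04). After quantile normalization 1 and 2 of the 11 were called. After centring 5 and 6 of the 11 were called, all lower. Without 1 array, the positive fraction's calls were lost for Slc7a5 and Slc38a2 without positive array a or either MEF array (0.063 to 0.085) and for Slc3a2 and Slc7a3 without any of the 4 (0.0518 to 0.1333), and the negative fraction's call for Slc7a3 without negative array a (-1.01, 0.0668) or MEF array a (0.0813).

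The day 32 sample, set against iPSC in 2i, differed in few solute carriers. Of 146 members 10 were called (6.85%, against 7.73% of all genes), 5 higher and 5 lower, where 5.23% and 2.5% of all genes were, with a median of -0.0 against -0.10 for all genes. Metal transporters made up 4 of the 10, with 2 higher and 2 lower. These were 16.7% of the 24 measured metal transporters, against 7.73% of all genes called. Slc39a8 read 6.73 and 5.38 at day 32 and 1.79 and 3.12 in 2i, at least 4.16-fold higher (3.60, adjusted p = 0.0241). Slc30a4 read 8.87 and 8.16 against 6.85 and 5.7, 4.72-fold higher (adjusted p = 0.0288). Both were above every 2i array at day 32, as the vesicle zinc exporter Slc30a2 was below, at 4.54 and 5.65 against 7.97 and 7.68, 6.63-fold lower (-2.73, adjusted p = 0.0111). The iron importer Slc11a2 was 2.03-fold lower (adjusted p = 0.0304), as was Tfrc by 1.08 log2 units (difference -1.08, adjusted p = 0.0309), while the ferroxidase Heph was higher (2.96, adjusted p = 0.0052).

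Of the other day 32 calls, Slc15a2 read 7.69 and 8.19 against 6.4 and 5.69, 3.72-fold higher (adjusted p = 0.0193), and Slc46a3, a lysosomal carrier of the folate transporter family, 5.37 and 5.58 against 3.96 and 3.7, at least 2.78-fold higher (0.008). Slc4a5 read 2.67 and 3.5 against 5.21 and 5.88, at least 2.92-fold lower (-2.46, adjusted p = 0.0045), and was the one call that held without each of the 4 arrays, though it passed the limit through the 2i arrays alone, as Slc46a3 and Slc25a53 did through those of day 32. It was not called over the 4 compared arrays alone (0.0514). Slc5a6 was 2.48-fold (0.0319) and the nucleoside carrier Slc29a1 2.45-fold (0.0395) lower, and Slc25a53 at least 1.32-fold higher (0.0254). All but Slc4a5 needed single arrays. Slc46a3 lost its call without 2i array b (0.0645), and Slc30a4 without day 32 array a or 2i array b (0.2221 and 0.1922). Slc39a8, Slc30a2, Slc29a1 and Slc25a53 lost theirs without day 32 array a or either 2i array (0.0513 to 0.29), Slc15a2 without either day 32 array or 2i array b (0.069 to 0.1355), and Slc5a6 and Slc11a2 without any of the 4 (0.0638 to 0.2154). Quantile normalization left Slc39a8, Slc5a6, Slc29a1 and Slc25a53 uncalled (0.0511 to 0.0693). Fat cell and fibroblast markers moved with the day 32 sample: the summed log2 level of 7 fat cell markers was 44.99 to 48.78 against 24.86 to 27.12 in 2i, with 1 and 5 of them under 4 on both arrays, and that of 12 fibroblast markers 56.45 to 58.43 against 38.83 to 44.96, with 5 and 8. Their part in the 10 calls was not tested.

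**Figure D4:**
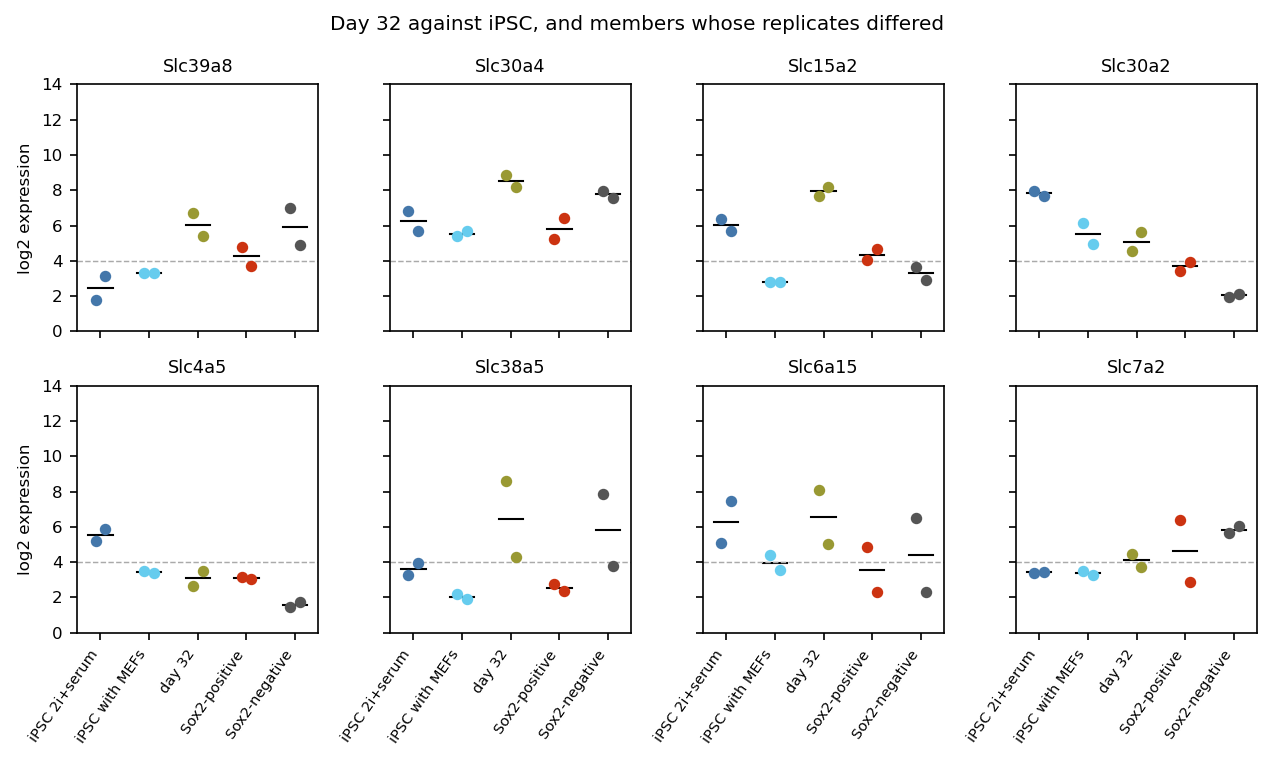
Deposited log2 expression on all 10 arrays of 5 members called between day 32 and iPSC in 2i (Slc39a8, Slc30a4, Slc15a2, Slc30a2, Slc4a5) and of 3 members whose replicates differed widely (Slc38a5, Slc6a15, Slc7a2). Points are arrays, short lines group means and the dashed line the limit of 4, with levels read within a panel; Slc38a5 reads 8.62 and 4.31 on the 2 day 32 arrays and 7.87 and 3.78 on the 2 Sox2-negative arrays.

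Between iPSC in 2i and iPSC with MEFs, 94 members were called (64.4%, against 61.1% of all genes), 83 higher and 11 lower in 2i, where 52.9% and 8.15% of all genes were. The members' median was 1.18, and that of all genes 1.0. Here the array class and the group are the same split, and scaling turned the balance: 36 were higher and 21 lower after quantile normalization, and 28 higher and 35 lower after centring, where the all-gene medians were 0.22 and -0.11. Of the 94 calls as deposited, 46 remained after quantile normalization and 39 after centring, and 9 and 12 changed sign. The members named next kept call and sign under both.

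Slc15a1 read 9.73 and 8.84 in 2i against 4.51 and 3.39, higher by 5.34 log2 units with 1 MEF array under 4 (adjusted p = 4.76e-04, at 4.19 and 4.22 under the scalings). Slc11a1 read 8.93 and 8.34 against 3.75 and 4.28, 24.6-fold higher (4.62, adjusted p = 7.46e-04). The zinc transporter Slc39a9 was at least 8.06-fold higher (adjusted p = 1.06e-04), and the acetyl-CoA carrier Slc33a1 at least 7.75-fold (3.73e-04). Quantile normalization moved these differences from 3.48 to 2.31 and from 3.39 to 2.23. In the other direction, the arginine importer Slc7a1 read 2.56 and 2.52 in 2i against 7.52 and 7.02, at least 9.65-fold lower (-4.73, SE 0.33, adjusted p = 2.89e-05). It was at 2.01 to 2.6 on all low-18S arrays and at 6.68 to 8.4 on all high-18S arrays, with day 32 on one side and both Sox2 fractions on the other. The vitamin C carrier Slc23a1 was at least 3.20-fold lower (adjusted p = 0.0038), Slc40a1 at least 2.01-fold (0.0055), and the mitochondrial carrier Slc25a30 3.62-fold (0.0022), though not by the mean of its 3 probe sets (0.0834). Centring moved Slc40a1 from -1.66 to -2.78 and Slc25a30 from -1.86 to -2.97. Of the 94 calls 61 held without each of the 4 arrays, all 8 named here among them.

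**Figure D5:**
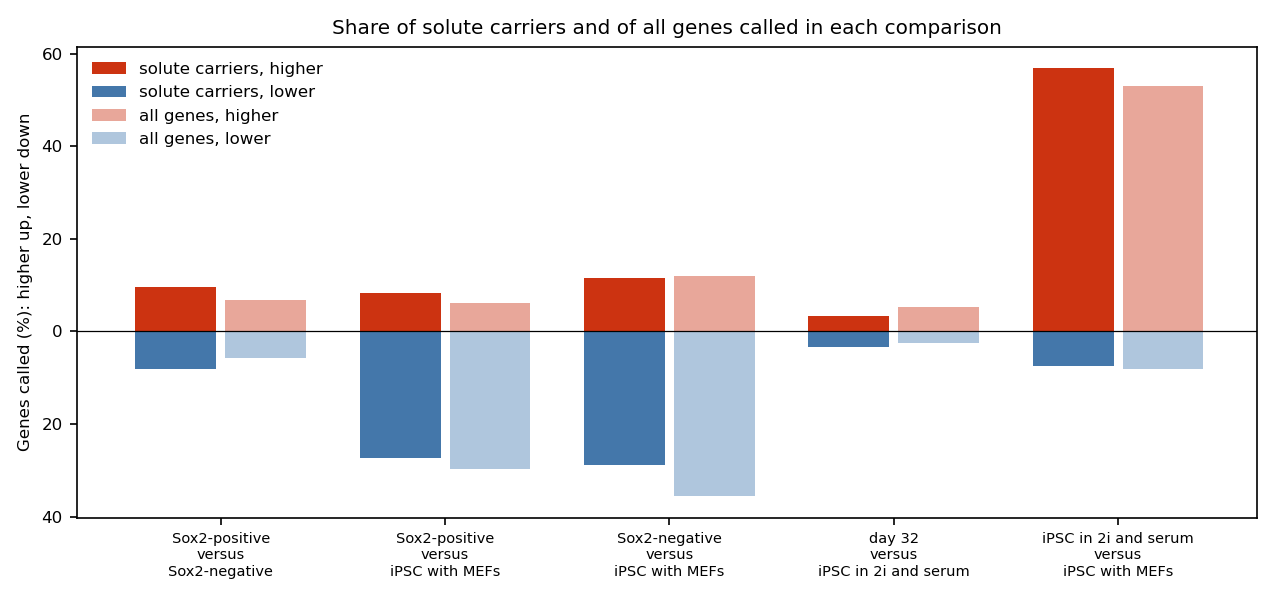
Share of genes called higher (bars up) and lower (bars down), in percent, in each of the 5 comparisons, with full colours for the 146 solute carriers and pale colours for all 8599 genes. Solute carriers follow all genes in which comparison has many calls, from 64.4% and 61.1% between the iPSC groups to 6.85% and 7.73% between day 32 and iPSC in 2i, with 17.8% and 12.5% between the fractions.

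A few members differed widely between replicates. A gap of over 2 log2 units between the arrays of a group was found for 3 members in 2i (2.05%, against 0.628% of all genes), 0 in iPSC with MEFs, 4 at day 32 (2.74%, 1.19%), 3 among Sox2-positive cells (2.05%, 1.94%) and 6 among Sox2-negative cells (4.11%, 2.23%). The neutral amino acid carrier Slc38a5 read 8.62 and 4.31 at day 32 and 7.87 and 3.78 in the negative fraction, array a high in both. Slc6a15, which carries branched amino acids and proline, passed that gap in every group but iPSC with MEFs, with 6.52 and 2.31 in the negative and 4.88 and 2.29 in the positive fraction. Slc7a2 read 6.41 and 2.85 on the positive arrays. Slc38a5 had the widest difference between the fractions among the uncalled members (-3.28, SE 1.42, adjusted p = 0.1656).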

How the data were processed

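Affymetrix mouse arrays measured RNA from 10 samples in 5 groups of 2. Per the submitters' processing notes, the deposited log2 values were made by the authors with GCRMA and affy. Their versions, and whether all arrays were normalized together, are not stated there. Per the labels' protocols, RNA was extracted with Trizol and amplified with either of 2 NuGEN kits. Arrays give no read depth, and their number limits the precision.

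Of 22690 probe sets, 64 were controls and 20380 carried a single gene symbol, of which 14012 exceeded log2 4 on at least 2 arrays. They stand for 8599 genes, each read from the probe set with the highest mean. One model with a mean per group was fitted over all 10 arrays with limma 3.58.1 in R 4.3.3 (5 residual degrees of freedom, 4.1 prior), with Benjamini-Hochberg adjustment over the 8599 genes and calls at an adjusted p under 0.05. Tables and figures were made with Python 3.11.15, pandas 2.3.3, numpy 2.4.6 and matplotlib 3.10.9. A fold is 2 to the power of the difference of means. Where a group lay under 4 on both arrays, it is a bound against 4 in place of that group's mean, and where both groups did, none is given.

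The members, substrate groups and gene lists were chosen with earlier results of these data known. Named genes are the largest called rises and falls without overlap between the arrays (10 of each between the fractions, 6 of each for either fraction against iPSC with MEFs and for day 32, and 4 of each between the iPSC groups), the brightest member of each substrate group and a set list of transporters, of which 1 is not reported here. Up to 3 genes of each associated list are named in order of p. Other members are named to complete a group of 6 or fewer calls or to compare their values in another contrast, or for their gap between replicates, and were chosen after their values were seen. Replicate letters were not taken as pairs, since only 2 of 10 pairs of groups had a correlation of deviations over 0.1. Both involved the day 32 sample, with the Sox2-positive (0.33) and the Sox2-negative fraction (0.209). The fractions with each other had 0.0484. Alternatives were quantile normalization, centring on the median, other filters, the compared arrays alone, array weights, the mean of a gene's probe sets, a replicate block and leaving out each array.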

Additional observations from a re-analysis of the deposited data

How the results depend on the processing

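Between the Sox2 fractions the count of called solute carriers was 26, 7 with the compared arrays alone, 6 with array weights and 8 to 20 without 1 array. The share of all genes called fell with it, from 12.5% to 3.76% and 4.29% under the first 2 of these, where 4.79% and 4.11% of the members were called. For the positive fraction against iPSC with MEFs it was 52, 34 after quantile normalization and 22 to 41 without 1 array, and for the negative fraction 59 and 34 to 51 without 1 array. For day 32 against iPSC in 2i it was 10, then 6 after quantile normalization, 4 among genes above log2 6 on 2 arrays, 2 with the compared arrays alone, 16 with array weights and 2 to 14 without 1 array. Between the iPSC groups it was 94, then 57 after quantile normalization and 65 to 74 without 1 array. With the replicate letter as a block, the paired fit called 27, 49, 59, 12 and 93 in the order above. Of the members called between the fractions, 17 of 26 remained without the filter on dim probe sets and 20 by the mean of the kept probe sets, and all 21 that passed log2 6 remained under that filter. Between the fractions, the mean of the kept probe sets changed the sign of 3 uncalled differences, of Slc38a10 to 0.14, Slc25a5 to 0.1 and Slc12a2 to -0.1. Without 1 array the differences of uncalled members ranged across 0 for Slc38a10 (-0.35 to 0.21), Slc25a5 (-0.3 to 0.22), Slc12a2 (-0.22 to 0.37), Slc40a1 (-0.21 to 0.86) and Slc38a2 (-0.1 to 0.52). The cause of these changes was not tested, except that stricter filters and fewer arrays leave fewer genes or samples. Background correction and slide or scan date as a block were not run. With 2 arrays a group, differences near the limit of 4 are the least well measured.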

Other observations

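Transporters outside the Slc naming pattern, a list of 8 measured Slco, Sfxn and Mpc genes, included 2 called lower in the Sox2-positive than in the Sox2-negative fraction. These were the sideroflexin Sfxn3 (-2.24, adjusted p = 0.0491, not called after centring or quantile normalization, at adjusted p of 0.0514 and 0.0652 in limma's test) and the organic anion transporter family member Slco5a1 (-1.95, adjusted p = 0.0386). At day 32, 2 of the 8 were called higher than in iPSC in 2i, Slco5a1 (2.04) and Slco3a1 (1.46), and neither was called after quantile normalization (adjusted p 0.0764 and 0.0642). After centring, 2 of the 8 were called higher.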
